A study of Oryza sativa with 10 samples.

Results

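The members described here are the H3K36me3 peaks of the rice varieties Guangluai-4 (GL) and Yangdao-6 (93-11), 19452 peaks of the 93054 in the 10 peak lists of the series. GL had 9738 of them and 93-11 had 9714. A peak was called shared when it overlapped a peak of the other variety by at least 1 bp, and otherwise GL only or 93-11 only. The study profiled H3K36me3 and H3K27me3 by chromatin immunoprecipitation and sequencing (ChIP-seq) in GL, 93-11, a further indica variety called Teqing (TQ) and the hybrids of GL with each of the others, GL×93-11 and GL×TQ. All plants were field grown, untreated and of the indica subspecies, and the tissue was the second fully expanded leaf. Leaves of 3 plots were pooled, so each variety has 1 H3K36me3 library, no replicate measures the spread, and no comparison below carries a test. The reads of these indica plants had been mapped to Nipponbare, a japonica variety, and the sources used here do not give the version of that genome. Positions are those of the deposited lists, and no gene could be placed on them.

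H3K36me3 is trimethylation of histone H3 at lysine 36. In plants, as in other eukaryotes, SET-domain methyltransferases that act with elongating RNA polymerase II lay it down over the bodies of transcribed genes, and it is therefore read as a mark of active transcription. H3K27me3, set by Polycomb repressive complexes, lies over silent genes, many of them developmental regulators. A leaf is a mixture of cell types, and in such bulk chromatin fewer cells that carry the mark and less mark per cell cannot be told apart.

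The H3K36me3 landscapes of GL and 93-11 coincided over most of their extent. Of the GL peaks 7527 were shared (77.3%, 95% Wilson interval 76.5 to 78.1) and 2211 were GL only (22.7%, 21.9 to 23.5). Of the 93-11 peaks 7533 were shared (77.5%, 76.7 to 78.4) and 2181 were 93-11 only (22.5%, 21.6 to 23.3). The lists cover 24.7 Mb in GL and 23.9 Mb in 93-11, and 17.5 Mb lay under peaks of both, which is 70.9% of the GL bases and 73.2% of the 93-11 bases. The intervals given here and below cover counting error only. Peaks of GL held 7096067 tags, and peaks of 93-11 held 5364527, so levels are expressed as tags per kb of peak per 1000000 tags in the peaks of the same list.

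Although nearly equal in number, the unshared peaks of GL and 93-11 were of different kinds. GL-only peaks were short, with a median of 1550 bp against 2870 bp for shared GL peaks. The 93-11-only peaks were long, with a median of 2975 bp against 2493 bp for shared 93-11 peaks. The GL-only peaks therefore took up 4.09 Mb and 12.9% of the GL tags, whereas the 93-11-only peaks took up 5.93 Mb and 25.3% of the 93-11 tags. Among GL-only peaks 1039 were up to 1500 bp long and 182 were over 3500 bp. Among 93-11-only peaks these numbers were 414 and 650.

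**Figure D1:**
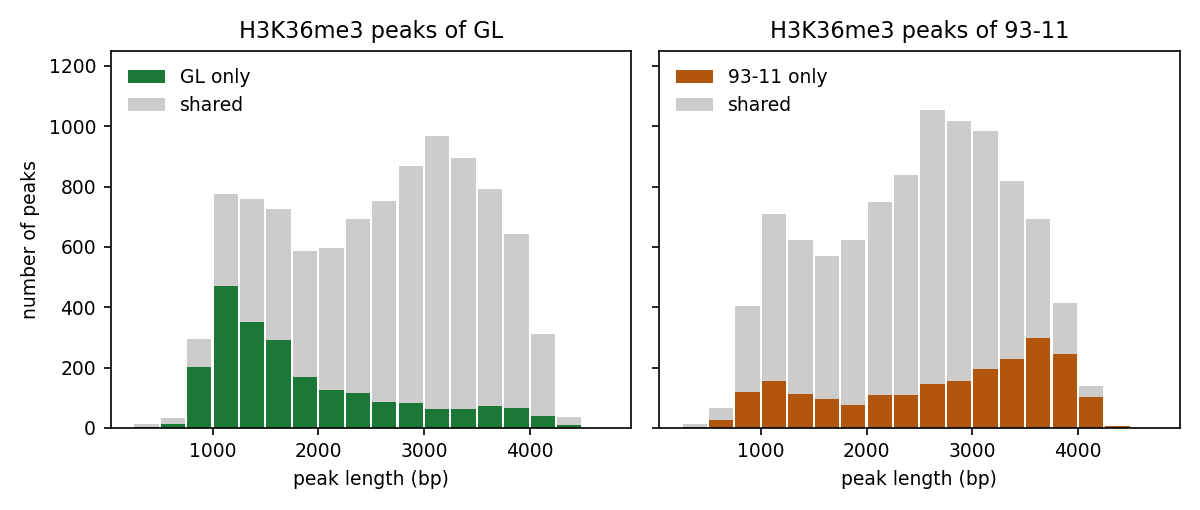
Number of H3K36me3 peaks (vertical axis) by peak length in bp (horizontal axis, classes of 250 bp) in GL (left) and 93-11 (right), with unshared peaks in colour and shared peaks in grey, stacked. GL-only peaks pile up at short lengths, with a median of 1550 bp, and 93-11-only peaks at long lengths, with a median of 2975 bp.

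Levels followed the same division. GL-only peaks had a median level of 26.1, with quartiles of 22.3 and 32.0, against 41.1 in shared GL peaks. The 93-11-only peaks had a median level of 41.0, with quartiles of 30.1 and 48.5, against 39.6 in shared 93-11 peaks. At like length the GL difference was still present, since among peaks of 2001 to 2500 bp the median level was 28.7 for GL-only and 36.9 for shared GL peaks. In that class the 93-11-only peaks had 37.1 and the shared 93-11 peaks 38.8. GL-only peaks were below shared GL peaks in each length class of 500 bp up to 4000 bp, and above them, with 50.2 against 49.3, from 4001 to 4500 bp. The 93-11-only peaks were below shared 93-11 peaks in each class up to 3500 bp and above them in both longer classes.

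The peak caller's own measures gave lower values of score for the unshared peaks of both varieties. The score is 10 times the negative log10 of the p-value that the peak caller MACS assigned to the peak. Its median was 106.9 in GL-only and 194.9 in shared GL peaks, and 91.4 in 93-11-only and 160.8 in shared 93-11 peaks. A score of 100 or more was reached by 53.7% of GL-only and 81.6% of shared GL peaks, and by 43.9% of 93-11-only and 77.3% of shared 93-11 peaks. Fold enrichment is the caller's ratio of tags to the local background. Over all lengths its median was 3.12 in GL-only against 2.94 in shared GL peaks, and 2.64 in 93-11-only against 3.07 in shared 93-11 peaks. At like length GL-only peaks had the lower fold too, with 3.42 against 3.93 at 1001 to 1500 bp and 2.99 against 3.36 at 2001 to 2500 bp, and the exception was the class of 3501 to 4000 bp, with 2.60 against 2.54. At 3501 to 4000 bp 93-11-only peaks had a median score of 79.1 and a fold of 2.42, against 93.8 and 2.56 in shared 93-11 peaks. The long 93-11-only peaks thus combined levels like those of shared peaks with low scores and low enrichment. Shared 93-11 peaks of that length had low values too, though somewhat higher.

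The share of peaks with a counterpart changed with length in both lists, and the lengths at which it was highest and lowest differed between them. Of the GL peaks, 34.9% (30.0 to 40.2) were shared at 501 to 1000 bp, 81.3% at 2001 to 2500 bp and 93.2% (92.0 to 94.3) at 3001 to 3500 bp. Of the 93-11 peaks, 69.5% (65.2 to 73.4) were shared at 501 to 1000 bp, 86.3% at 2001 to 2500 bp, 51.0% (48.0 to 53.9) at 3501 to 4000 bp and 24.3% (18.0 to 31.9) at 4001 to 4500 bp. Short GL peaks and very long 93-11 peaks were those most often without a counterpart. The longest peak was 4394 bp in GL and 4348 bp in 93-11, and the 93-11 share was lowest in the class that holds these lengths. In the same classes the shared GL peaks stayed at 90.5% and 86.7%.

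**Figure D2:**
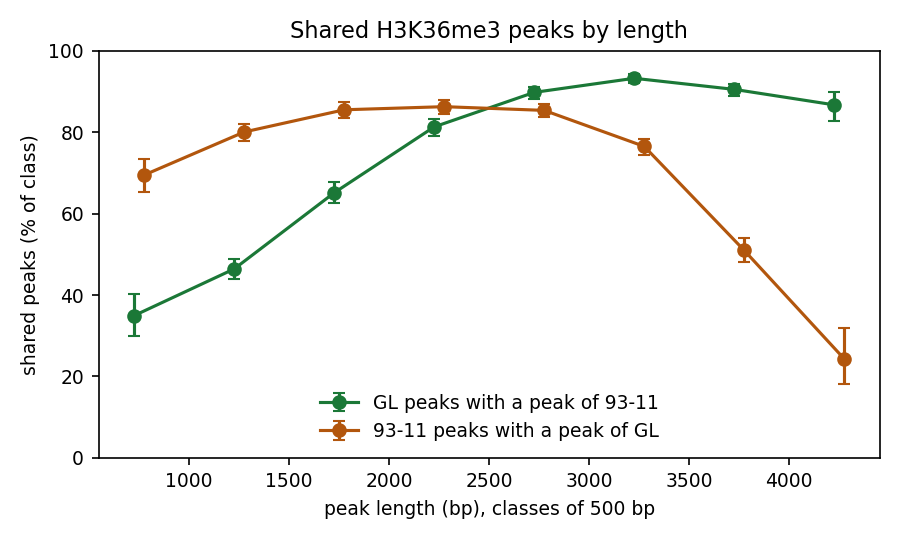
Share of H3K36me3 peaks with an overlapping peak in the other variety (vertical axis, % of the class) by peak length (horizontal axis, classes of 500 bp with at least 100 peaks), with GL in green and 93-11 in brown and bars for 95% Wilson intervals. The GL share is lowest in the shortest class, at 34.9%, and highest at 93.2%, with 86.7% in the longest class, and the 93-11 share is highest at 86.3% and lowest in the longest class, at 24.3%.

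Score and length each went with the share of counterparts. With a score under 100, from 100 to 200 and of 200 or more, the shared GL peaks made up 57.5%, 76.1% and 90.1% of their class, and the shared 93-11 peaks 58.3%, 81.4% and 92.2%. Among GL peaks of up to 1500 bp the same 3 score classes gave 29.7%, 45.8% and 70.0%, so that low score and short length together gave the lowest share. Among 93-11 peaks over 3500 bp they gave 41.3%, 62.0% and 83.3%, the last over 12 peaks. A score of 200 or more without a counterpart was found for 400 peaks of GL and 221 of 93-11. The part that library depth and the calling limits had in these shares was not tested.

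At shared places the question was whether the mark differed in extent or in amount. Pairing peaks that overlapped each other and no other peak gave 7493 pairs. Only 16 GL peaks spanned more than 1 peak of 93-11, and 10 peaks of 93-11 spanned more than 1 of GL. In 7278 pairs (97.1%) the peaks covered at least 50% of each other, and the summits, the points of highest tag density, lay a median of 134 bp apart (quartiles 40 and 411). The paired peaks were thus at the same places, with 5996 pairs (80.02%) having summits within 500 bp.

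GL peaks were the longer member of most pairs. The median length was 2872 bp in GL and 2496 bp in 93-11, and the GL peak was longer in 6414 pairs (85.6%), the 93-11 peak in 1064, with 15 equal. The median difference was 286 bp, with quartiles of 97 and 550 bp, and it was spread evenly over both ends, since GL peaks started a median of 121 bp earlier and ended 123 bp later. A GL peak enclosed the whole 93-11 peak in 4829 pairs (64.4%), and a 93-11 peak enclosed the GL peak in 358 (4.78%). The median difference was 330 bp where the 93-11 peak had 2001 to 2500 bp, 179 bp at 3501 to 4000 bp and 39 bp at 4001 to 4500 bp. GL also had more tags per kb, with a median ratio of 1.35 before division by the tags of each list, and the part of depth in the longer peaks was not tested.

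Levels, which divide tags by the length of each peak and by the sum of tags of its list, were nearly equal. Division by that sum brings both lists to the same total, so the median ratio cannot show a difference in total amount. Tags per kb before that division had a median ratio of 1.35. Before division by length, the GL over 93-11 ratio of tags as a share of their list had a median log2 of 0.20. By that ratio 328 of the 7493 pairs were past 2-fold higher in GL and 61 were higher in 93-11. The GL over 93-11 ratio of levels had a median log2 of 0.03, with quartiles of -0.09 and 0.15 and a range of -1.004 to 1.19. Past 2-fold in level, 4 pairs were higher in GL (0.0534% of the pairs) and 1 was higher in 93-11 (0.0133%). Past 1.5-fold the numbers were 113 (1.51%) and 41 (0.547%). Over all pairs the level was higher in GL in 4223 and in 93-11 in 3270 (43.6%). The SD of the log2 ratio over the pairs was 0.21, and the median counting error of a single ratio was 0.08, while the spread between replicate libraries is unknown. Across the pairs, which share their libraries and depth, the log2 levels had a Pearson correlation of 0.84, given as a description. The scatter was wider for short peaks, with an SD of 0.30 at 501 to 1000 bp of 93-11 length and 0.15 at 3501 to 4000 bp.

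**Figure D3:**
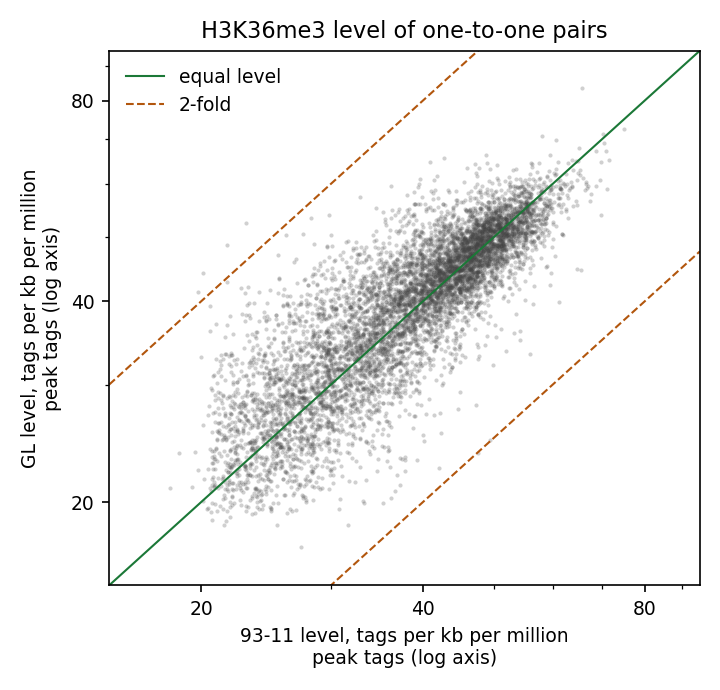
H3K36me3 level of GL (vertical axis) and of 93-11 (horizontal axis) in the 7493 pairs, both in tags per kb per 1000000 peak tags on log axes, with 1 point per pair, a solid line for equal level and dashed lines for 2-fold. The points follow the line of equal level, and 5 of them lie past the dashed lines.

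In the pairs with the most unequal levels the peak with the lower level was also the shorter one. The largest ratio was on chromosome 2 from 35109135 to 35110106, where GL had 361 tags and a level of 52.3, and 93-11 had 111 tags and a level of 23.0 (log2 1.19, counting error 0.16). The next was on chromosome 4 from 31462939 to 31464835, with 653 tags and a level of 48.5 in GL against 111 tags and 21.7 in 93-11 (log2 1.16). On chromosome 1 from 8554149 to 8556403 GL had 706 tags and a level of 44.1, and 93-11 had 152 tags and 20.1 (log2 1.13). In the 6 pairs with the largest ratios and at least 100 tags in both, the ratio was 1.92 to 2.27. The scores in these pairs were 262 to 1018 in GL and 53.2 to 132 in 93-11. The GL peak was the longer in each, as it was in 85.6% of all pairs.

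In the opposite direction the lowest ratio was on chromosome 1 from 2402608 to 2403851 in GL, with 209 tags and a level of 23.7, inside a 93-11 peak with 758 tags and a level of 47.5 (log2 -1.004). On chromosome 11 from 529953 to 531807 GL had 326 tags and a level of 24.8, and 93-11 had 565 tags and 49.3 (log2 -0.99). On chromosome 5 from 4313286 to 4314471 the levels were 22.46 in GL and 42.03 in 93-11 (log2 -0.90). The 93-11 peak was the longer in each of the 6 pairs with the lowest ratios, with 1606 to 3411 bp against 1046 to 1855 bp in GL. Over all 7493 pairs the 93-11 peak was the longer in 1064. The GL scores in these pairs were 60.0 to 144 and the 93-11 scores 93.9 to 312.

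The 5 pairs with the highest mean level were picked by a rule that favours places high in both varieties. Their likeness is therefore no separate result, and over all pairs the median log2 ratio was 0.03. The highest mean level was on chromosome 6 from 18952488 to 18953713, with 83.6 in GL and 65.8 in 93-11 (log2 0.35, counting error 0.09). This compact pair was the exception among the 5 pairs with the highest mean level. The other 4, on chromosomes 4, 6, 9 and 4, were 3315 to 3950 bp long in either list, with levels of 67.1 to 72.5 in GL and 70.3 to 74.9 in 93-11. Their ratios differed from 1 by 1.05-fold or less.

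Unshared peaks with the highest scores had a higher fold enrichment than most. The 6 of GL had 1253 to 1904 bp, around the GL-only median of 1550 bp. The 6 of 93-11 had 1173 to 2445 bp, below the 93-11-only median of 2975 bp. The highest score of a GL-only peak, 1163, belonged to chromosome 3 from 294405 to 296005. It had 583 tags (95% Poisson interval 537 to 632) at a fold enrichment of 4.87. It lay 639 bp from the nearest 93-11 peak, and both F1 hybrids but not TQ had a peak over it. The next, on chromosome 12 from 11903264 to 11904877, had 499 tags, a score of 864 and a fold of 5.68, and TQ and both hybrids had a peak there. On chromosome 11 from 26908614 to 26909866, 389 tags gave a fold of 6.83, with peaks in both hybrids and none in TQ. All 6 GL-only peaks with the highest scores had a peak in both hybrids, and 4 of the 6 had none in TQ.

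The highest score of a 93-11-only peak, 658.5, belonged to chromosome 1 from 844992 to 846992. It had 529 tags (485 to 576) at a fold of 5.23. A GL H3K27me3 peak overlapped it, while no 93-11 H3K27me3 peak did. On chromosome 1 from 8539862 to 8541034, 276 tags gave a fold of 6.23, with a peak in GL×93-11 and none in GL×TQ or TQ. On chromosome 11 from 25731865 to 25734024, 555 tags gave a fold of 3.74, and the nearest GL peak was 52726 bp away. All 6 such peaks had a peak in GL×93-11, and 4 of them had one in GL×TQ.

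The unshared peaks with the highest levels were mostly wide, and the longest ones had low scores. The 4 GL-only peaks with the highest levels, 60.5 to 64.6, had folds of 2.08 to 3.17, and the first of them lay on chromosome 10 from 8005758 to 8009076 with 1522 tags. The 4 93-11-only peaks with the highest levels, 66.7 to 68.7, had folds of 2.24 to 3.37, and the first of them lay on chromosome 5 from 26565338 to 26568280 with 1084 tags. The 3 longest GL-only peaks had 4338 to 4375 bp and scores of 52.3 to 58.8, and the 3 longest 93-11-only peaks had 4281 to 4348 bp and scores of 52.4 to 63.4. Low scores went with this length whether or not a peak had a counterpart, since from 4001 to 4500 bp the median score was 65.3 in GL-only and 66.1 in shared GL peaks, and 59.1 in 93-11-only and 65.1 in shared 93-11 peaks.

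The other libraries of the series held many of the unshared peaks. Of the GL-only peaks 38.1% (36.1 to 40.2) overlapped an H3K36me3 peak of TQ, 54.5% (52.4 to 56.5) 1 of GL×93-11 and 42.7% (40.6 to 44.8) 1 of GL×TQ. Of the 93-11-only peaks these shares were 55.7% (53.6 to 57.8), 54.2% (52.1 to 56.3) and 45.7% (43.6 to 47.8). Shared peaks of either list were overlapped in 93.8% to 95.7% of cases by each of these libraries. The parents of GL×TQ are GL and TQ, and TQ had a peak at more of the 93-11-only than of the GL-only peaks. This held at a score of 200 or more too, with 66.5% against 56.25%. Over all scores the GL-only share in GL×TQ was below the 93-11-only share. It was 26.0% against 36.1% at a score under 100, and 46.8% against 56.3% from 100 to 200. At a score of 200 or more the order was the other way, with 77.5% (73.2 to 81.3) of GL-only and 62.9% (56.4 to 69.0) of 93-11-only peaks overlapped in GL×TQ. In the same score class GL×93-11 had a peak at 88.0% of GL-only and 81.4% of 93-11-only peaks.

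A part of the unshared peaks was seen in a single library. No H3K36me3 peak of TQ or of either hybrid overlapped 683 GL-only peaks (30.9%), with a median length of 1348 bp, a median score of 77.8 and a median level of 22.8. The same held for 488 93-11-only peaks (22.4%), with a median length of 2956 bp, a median score of 72.3 and a median level of 39.2. All 3 other libraries had a peak at 475 GL-only peaks (21.5%), with a median length of 1796 bp and a median score of 174.9, and at 591 93-11-only peaks (27.1%), with a median length of 2950 bp and a median score of 123.6. The peaks seen in no other library thus had lower scores than those seen in all 3 in both varieties, and were shorter in GL but of about the same length in 93-11.

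H3K27me3 in the same leaves lay over few H3K36me3 peaks. A GL H3K27me3 peak overlapped 304 GL-only peaks (13.7%, 12.4 to 15.2) and 544 shared GL peaks (7.23%, 6.66 to 7.83). A 93-11 H3K27me3 peak overlapped 133 93-11-only peaks (6.10%, 5.17 to 7.18) and 408 shared 93-11 peaks (5.42%, 4.93 to 5.95). The share under H3K27me3 also went with length, and short peaks of either kind had it more often. Up to 1500 bp the share was 16.0% for GL-only and 20.1% for shared GL peaks, and above that and up to 2500 bp it was 15.0% and 9.31%. Overlap with H3K27me3 of the other variety was also counted where 1 variety alone had a called H3K36me3 peak. H3K27me3 of 93-11 was found at 180 GL-only peaks (8.14%, 7.07 to 9.35) against 6.38% of shared GL peaks. H3K27me3 of GL was found at 117 93-11-only peaks (5.36%, 4.49 to 6.39) against 6.29% of shared 93-11 peaks. The order in GL depended on length. Up to 1500 bp the share under H3K27me3 of 93-11 was 8.95% for GL-only and 17.4% for shared GL peaks. Above that and up to 2500 bp it was 7.74% and 8.31%. The order was the other way in longer peaks, with 8.90% and 4.07% up to 3500 bp, and 3.85% and 2.94% over 3500 bp. H3K27me3 of the other variety alone was found at 67 GL-only peaks (3.03%) against 1.94% of shared GL peaks, and at 45 93-11-only peaks (2.06%) against 2.46% of shared 93-11 peaks. Over all lengths the 93-11-only peaks thus had no larger share under H3K27me3 of GL than shared peaks had.

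**Figure D4:**
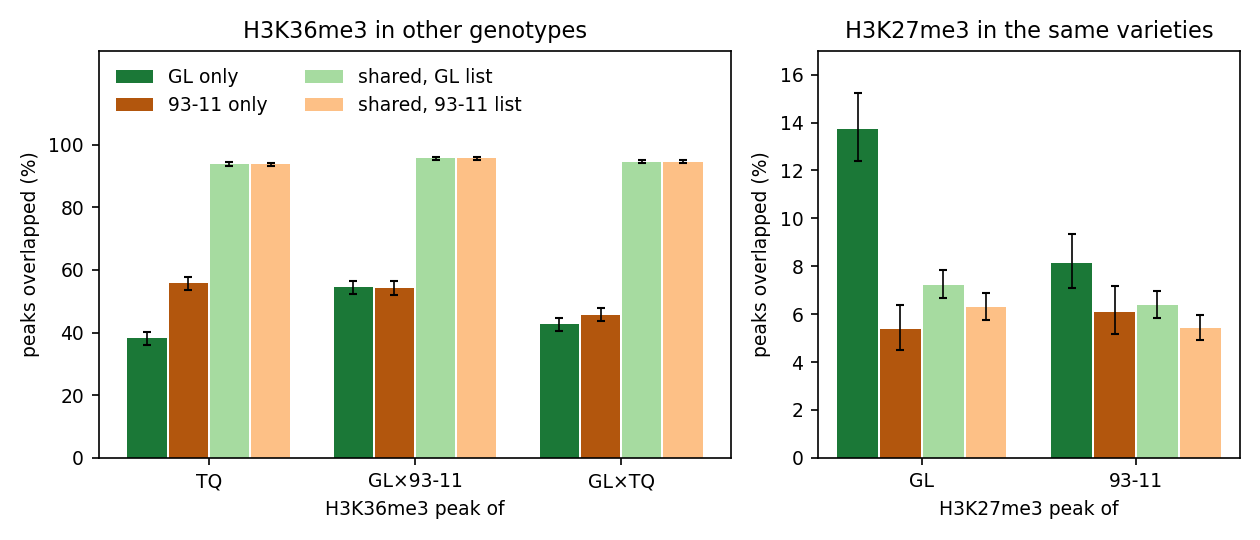
Share of H3K36me3 peaks (vertical axes, %) overlapped by an H3K36me3 peak of TQ, GL×93-11 or GL×TQ (left) and by an H3K27me3 peak of GL or 93-11 (right), for GL-only, 93-11-only and shared peaks, with bars for 95% Wilson intervals. Shared peaks reach 93.8% to 95.7% on the left and unshared peaks 38.1% to 55.7%, and on the right GL-only peaks stand highest, with 13.7% under H3K27me3 of GL.

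Unshared peaks were found on every chromosome. The GL-only share of the list went from 19.4% on chromosome 5 to 29.3% on chromosome 11, with 27.6% on chromosome 10. The 93-11-only share went from 20.5% on chromosome 9 to 26.7% on chromosome 11. Chromosome 11 thus had the highest unshared share in both lists. Median log2 level ratios of the pairs lay between 0.00 on chromosome 12 and 0.04 on chromosome 3.

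**Figure D5:**
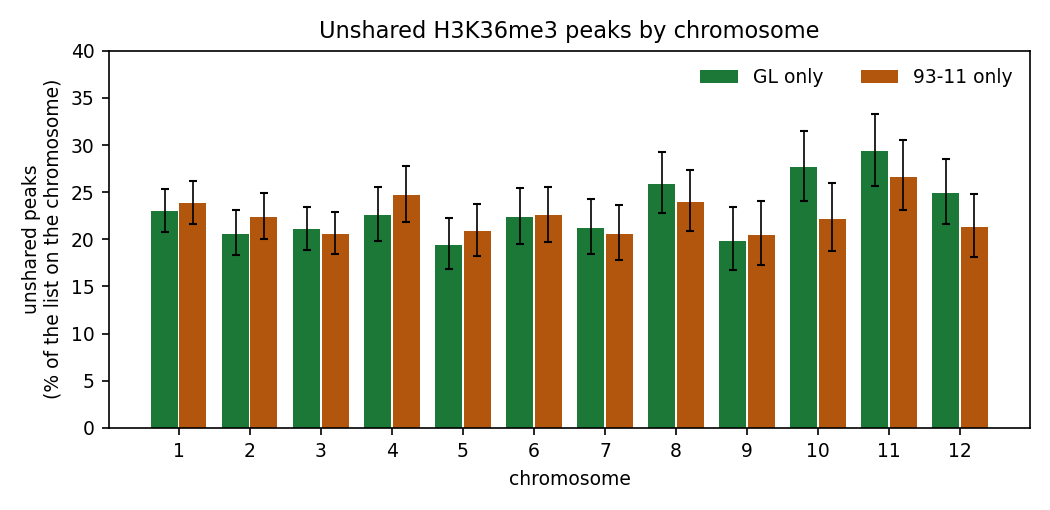
Share of the H3K36me3 peaks on each chromosome (horizontal axis) that were GL only or 93-11 only (vertical axis, % of the list on that chromosome), with bars for 95% Wilson intervals. Chromosome 11 has the highest share in both lists, 29.3% in GL and 26.7% in 93-11.

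The nearest peak of the other variety was mostly several kb from an unshared peak, and so was the nearest peak of the same list. The nearest 93-11 peak was a median of 9983 bp from a GL-only peak (quartiles 3636 and 23078), and the nearest GL peak a median of 8658 bp from a 93-11-only peak (quartiles 2989 and 21243). In GL the nearest peak of the same list was a median of 8844 bp from a GL-only and 7936 bp from a shared peak. In 93-11 these medians were 7066 bp for 93-11-only and 7925 bp for shared peaks. Within 1 kb there was a peak of the other variety for 131 GL-only (5.92%) and 163 93-11-only peaks (7.47%). Beyond 50 kb there were 197 GL-only peaks (8.91%) and 152 93-11-only peaks (6.97%). The most isolated GL-only peak, with 173 tags and a fold of 5.87, was on chromosome 8 from 13481884 to 13482909, and the nearest 93-11 peak was 378121 bp away. The most isolated 93-11-only peak, with 95 tags and a fold of 4.44, was on chromosome 7 from 12136737 to 12137573, at 345252 bp from the nearest GL peak. Another peak of the same list lay within 1 kb of 7.42% of GL-only and 7.94% of shared GL peaks, and of 9.77% of 93-11-only and 5.52% of shared 93-11 peaks.

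Most unshared peaks stood alone, and the rest stood next to each other. A run was a series of neighbouring unshared peaks of a list with no peak of the other list between them. Along the chromosomes 1349 GL-only peaks stood in no such run, and 862 stood in 369 runs of 2 or more. Unshared peaks were 22.7% of the GL and 22.5% of the 93-11 list, so some adjoin in any order, and clustering was not tested. For 93-11-only peaks the numbers outside runs, in runs and of runs were 1330, 851 and 374. The longest GL run held 7 peaks on chromosome 10 from 1890426 to 2046485, with 3505 tags and no peak of 93-11, and TQ had peaks at 3 of them and each hybrid at 4. Next came 2 runs of 6 GL peaks each. The run on chromosome 4 from 13016897 to 13392435 held 3075 tags, and 1 of its 6 peaks was under H3K27me3 of GL. The run on chromosome 9 from 17415936 to 17448760 covered 32.8 kb with 1650 tags, and 3 of its 6 peaks were. In the run of 7 the number was 0, and the share over all GL-only peaks was 13.7%. The longest 93-11 runs held 5 peaks each, on chromosome 11 from 8871824 to 8972140 with 1594 tags and on chromosome 4 from 6949600 to 7096223 with 969 tags. TQ had peaks at 4 of the 5 on chromosome 11 and at all 5 on chromosome 4, and GL had none in either run.

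The unshared share also varied between windows of 1 Mb with at least 10 peaks. The GL-only share had a median of 22.2% over 351 windows and reached 76.9% (10 of 13 peaks) on chromosome 11 from 27000001 to 28000000. The 93-11-only share had a median of 21.4% over 346 windows and reached 60.0% (6 of 10 peaks) both on chromosome 12 from 11000001 to 12000000 and on chromosome 4 from 2000001 to 3000000. The window on chromosome 12 was among the highest in either list, as 8 of its 12 GL peaks were GL only. The third highest share in GL was that of chromosome 10 from 7000001 to 8000000, with 11 of 17 peaks unshared, and chromosome 4 from 13000001 to 14000000 had the same 11 of 17. The third highest share in 93-11 was on chromosome 8 from 14000001 to 15000000, with 6 of 11. Windows with many peaks varied less, with a highest share of 40.5% for GL only and 42.2% for 93-11 only where there were 30 or more.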

How the data were processed

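H3K36me3 ChIP-seq of pooled leaves was compared between GL and 93-11, with 1 library each. The authors mapped the reads with SOAP2, allowing 2 mismatches, and ran MACS 1.4.0 on each library at a p-value of 1.00e-05 to obtain its peaks, without naming an input control for that step. The deposited lists give, per the file headers, the position, length, summit, tag count and fold enrichment ratio of each peak. The deposited score column lost its heading and was read as 10 times the negative log10 of p, since its lowest value is about 50. Tags were divided by length and by the sum of tags in the list. Wilson and Poisson intervals are at 95%. Python 3.11.15, pandas 2.3.3 and scipy 1.17.1 were used, and the counting was tested on simulated data.

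The members, lists and alternatives were chosen with earlier results of these data known. Named unshared peaks, per variety, are the 6 with the highest score, 4 with the highest level and 3 longest, with the 5 longest runs and the 3 windows of 1 Mb with the highest unshared share. Named pairs, with at least 100 tags in both, are the 6 highest and 6 lowest ratios and the 5 highest mean levels. The other libraries served for overlap only, with H3K27me3 tags of GL and 93-11 used also as counts.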

Additional observations from a re-analysis of the deposited data

How the results depend on the processing

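Under 10 alternatives 63 values were recomputed, of which 39 stayed within limits (counts and bp within 1.5 times, medians within the 95% interval of the main median) and 24 moved past them, and the GL-only peaks had the lower median length and level under each alternative in which these were recomputed. With a score of 100 or more in both lists the GL-only and 93-11-only peaks had median lengths of 1900 and 2905 bp and median levels of 38.7 and 60.7, on the smaller sum of tags, and 0 pairs were past 2-fold higher in GL, while 11969716 bp lay under peaks of both, and 2211 peaks (30.2% of the list) were GL only and 1664 (24.5%) 93-11 only. With that score asked only of the unshared peak, 1187 GL-only and 958 93-11-only peaks were left, with lengths of 1639 and 2876 bp and levels of 27.9 and 43.6, of which 98 and 49 were under H3K27me3 of the other variety. With the unique mapped reads of the study as totals, levels were 3.88 and 5.89 per 1000000 reads, and 0 pairs were past 2-fold higher in 93-11, as also among pairs that cover 50% of each other. A limit of 1.5 gave 113 and 41 pairs, and tags without division by length gave 328 and 61. With peaks of at most 3000 bp, a limit chosen after seeing the data, 1903 GL-only (31.2%) and 1109 93-11-only peaks (16.6%) were left, with levels of 24.9 and 30.9. The cause was not tested. No paired analysis was possible because each variety has 1 library without a replicate number, and no replicate could be left out. Settings that do not alter a value were not rerun for it. The depth differs between the lists, and a place without a peak may hold mark below the calling limit.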

Other observations

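Level ratios of the pairs were also compared between windows of 1 Mb with at least 10 pairs. Over 317 windows the median log2 ratio of GL over 93-11 had an SD of 0.06. The lowest medians were -0.30 on chromosome 12 from 13000001 to 14000000, where 20 of 23 pairs were higher in 93-11, and -0.23 on chromosome 12 from 20000001 to 21000000, where 10 of 14 were. The highest was 0.23 on chromosome 2 from 13000001 to 14000000, where 1 of 15 pairs was higher in 93-11. Over all pairs 43.6% were higher in 93-11. These windows were picked by the same ratios, so the counts in them are no separate result.

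Inside the lowest window 17 consecutive pairs, with neighbours at most 20 kb apart, were all higher in 93-11, on chromosome 12 from 13341498 to 13416751. Their log2 ratios were -0.57 to -0.08. The peaks there held 4405 tags in GL and 4263 in 93-11, a ratio of 1.03 against 1.32 for the whole lists. H3K27me3 peaks overlapped all 17 GL peaks and 16 of the 17 93-11 peaks, and over 16 H3K27me3 pairs the tags were 3225 in GL and 2977 in 93-11, a ratio of 1.08 against 1.25 for the whole H3K27me3 lists. Peaks of both marks were thus called in this stretch in both varieties, with no input control named for the calling. It also held 1 GL-only and 1 93-11-only H3K36me3 peak. TQ and GL×93-11 had H3K36me3 peaks at all 17 GL peaks of the pairs and GL×TQ at 16.

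In 8 of these 17 pairs both edges lay within 5 bp of each other. Over all pairs 43 (0.574%) had such edges, 15 of them on chromosome 12, which held 452 of all 7493 pairs. Their median length was 877 bp in GL and 878 bp in 93-11, and their median log2 ratio was -0.26. GL H3K27me3 overlapped 24 of the 43 GL peaks (55.8%), and 93-11 H3K27me3 overlapped 26 of the 43 93-11 peaks (60.5%). In the other 7450 pairs, with median lengths of 2877 bp in GL and 2502 bp in 93-11, these shares were 6.86% and 5.09%. Among shared peaks of up to 1500 bp they were 20.1% in GL and 11.4% in 93-11. The 43 pairs, and the 15 on chromosome 12, include the 8 of the stretch that led to the count. The edge limit and the stretch were chosen after their values were seen, and no cause was tested.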
